A study of Mus musculus with 12 samples.

Results

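The imprinted Dlk1-Dio3 region of mouse chromosome 12 carries a large group of microRNA (miRNA) genes, and this report describes those miRNAs in exosomes released by cultured ovarian granulosa cells. Members were chosen by name, as every entry of the deposited count tables, of either arm, whose miR number was 1 of 45 numbers of this region. Of these numbers 31 had an entry and 14 had none, which gave 43 of the 637 entries. The 43 entries belong to 32 hairpins, 11 of which were listed with both arms and 21 with 1 arm. Entries are named here without the mmu- prefix of the files.

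In an imprinted region the copy inherited from 1 parent is silent. At Dlk1-Dio3 the protein-coding genes Dlk1, Rtl1 and Dio3 are expressed from the paternal chromosome, whereas the long noncoding RNAs Meg3, Rian and Mirg and the miRNAs are expressed from the maternal chromosome. The miRNAs are cut from these long maternal transcripts, and a mature miRNA pairs with messenger RNAs mainly through its seed, a short stretch near its 5′ end. Expression of the cluster is best known from the embryo, placenta, brain and pituitary, and its miRNAs are also found outside cells.

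Small RNA was sequenced from the exosomes of mouse ovarian granulosa cells, the somatic cells that surround the oocyte, in 12 libraries of 4 groups with 3 libraries each. All cells were first kept for 24 h in DMEM/F12 without exosomes before a culture of 48 h. Cells of the CON group were left untreated, the FAC group received ferric citrate (100 μM), the DFO group received ferric citrate (100 μM) with the iron chelator deferoxamine mesylate (100 μM), and the VE group received ferric citrate (100 μM) with VITE (200 μM), as vitamin E is abbreviated in the labels. CON was therefore the only group without added iron, and no group received the chelator or VITE alone. The comparison of FAC with CON addresses iron overload, and those of FAC with DFO and VE address an added chelator and antioxidant. The labels do not say whether the 3 libraries of a group came from separate cultures, so p-values measure the spread between these libraries, which may be technical.

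The mature sequences below are those on which the results turn, namely the most abundant members and the members past the threshold of a comparison. They are RefSeq sequences of the assembly GRCm38.p6, matched by miRNA name for 41 of the 43 entries, with the seed (bases 2 to 8) in capitals. No sequence was matched for miR-485-5p and miR-487b-3p. The most abundant members, in descending order of level, were
miR-409-3p: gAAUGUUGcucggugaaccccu
miR-127-3p: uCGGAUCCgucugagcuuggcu
miR-412-5p: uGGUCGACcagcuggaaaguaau
miR-382-5p: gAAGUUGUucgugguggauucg
miR-379-5p: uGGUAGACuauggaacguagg
miR-543-3p: aAACAUUCgcggugcacuucuu
miR-323-3p: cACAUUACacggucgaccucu
miR-770-3p: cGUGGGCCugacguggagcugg
miR-541-5p: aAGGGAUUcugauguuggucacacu
The less abundant members past the threshold of a comparison (at an unadjusted p), or whose FAC libraries did not overlap with the others, were
miR-495-3p: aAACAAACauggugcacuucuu
miR-667-3p: uGACACCUgccacccagcccaag
miR-411-5p: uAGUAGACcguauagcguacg
miR-323-5p: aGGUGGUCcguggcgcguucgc
miR-668-5p: gUAAGUGUgccucgggugagcaug
miR-369-5p: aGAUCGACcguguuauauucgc

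The printed seeds all differ from each other, so these members do not form a seed family. Over the 41 sequences there were 39 distinct seeds, and the only pairs of members with a common seed were miR-379-3p with miR-411-3p (AUGUAAC) and miR-299a-3p with miR-299b-3p (AUGUGGG). Outside the cluster, miR-329-3p shared its seed with the entry of miR-362-3p, and miR-410-3p with those of miR-344d-3p and miR-344e-3p. Where long runs of bases are shared, a read can be counted on either entry. The longest were 21 bases between miR-299a-5p and miR-299b-5p, 18 bases between their 3p arms and 16 bases between miR-300-3p and miR-381-3p, and the counts of these 6 members are uncertain for that reason. Among the 9 sequences printed for the most abundant members, the longest run shared with any other entry was 12 bases, ggugcacuucuu, the common 3′ end of miR-543-3p and miR-495-3p. The members were 18 to 25 bases long with a median of 22, and their median GC content was 47.8% against 52.2% over the 547 entries of the tables with a sequence.

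All 41 matched sequences lie on chromosome 12, in 30 hairpins at chr12:109563692-109743795 of GRCm38.p6, a span of 180.1 kb. Of the 30 hairpins 29 are on the plus strand, and Mir299b is on the minus strand, where it lies over Mir299a. Mir770, the first in order, lies in Meg3. Mir673, Mir493, Mir337, Mir431, Mir433, Mir127 and Mir434 lie within the span of Rtl1 on the strand opposite to it, as part of the maternal transcript antisense to that gene. Mir370 lies in Rian. The other 21 hairpins run from Mir379 to Mir410 within 34.7 kb, and the last 5 of them, Mir541, Mir409, Mir412, Mir369 and Mir410, lie in Mirg.

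Depth and composition differed between the groups before any single miRNA was considered. The counts on all miRNAs summed to 452021 to 1211227 in the CON libraries, 5219420 to 7565362 in FAC, 1373519 to 4877426 in DFO and 2227419 to 3530978 in VE, while the library totals behind the deposited RPM values (miRNA reads scaled to a common library size) lay between 22631206 and 24845945. The miRNA counts were thus 2.0% to 5.0% of the library in CON, 21.6% to 30.4% in FAC, 5.53% to 19.9% in DFO and 9.20% to 14.6% in VE, and a level relative to miRNA counts and a level relative to the library answer different questions. Levels are given here as normalized CPM, counts scaled to the summed miRNA counts with TMM factors, unless RPM is named. In such a pool, more exosomes, more miRNA per exosome and a larger share of exosomes that carry a miRNA cannot be told apart. Of the granulosa marker miRNAs, 9 entries were detected, led by miR-21a-5p, and miR-383 had no entry. Their summed level was 1913 to 2846 CPM in CON, 1590 to 3519 in FAC, 992 to 1759 in DFO and 1192 to 1738 in VE, below that of miR-122-5p, the liver miRNA, whose group means were 80763 CPM in FAC, 108252 in DFO, 119757 in CON and 159156 in VE. The 5 entries of neuronal and pituitary miRNAs, tissues in which the cluster is also active, summed to 12.6 to 355 CPM in CON, 133 to 324 in FAC, 12.4 to 287 in DFO and 495 to 814 in VE. They were led by miR-375-3p. miR-7a-5p had group means of 4.65 CPM in CON, 61.2 in FAC, 21.5 in DFO and 95.9 in VE. In the same order miR-124b-3p was at 0, 10.0, 1.49 and 9.74 CPM and miR-9-5p at 0, 0, 50.3 and 11.5 CPM. miR-9b-3p had 1 count, in VE. The 4 red blood cell entries summed to 30269 to 66408 CPM in CON, 7346 to 108360 in FAC, 15527 to 86431 in DFO and 90124 to 170370 in VE. Most of this sum was the joined entry of miR-486a-5p and miR-486b-5p, with group means of 44909 CPM in CON, 42128 in FAC, 45742 in DFO and 133738 in VE. In the same order miR-451a was at 503, 454, 244 and 1746 CPM, and miR-144-3p had 1 count, in DFO. The 8 entries of ovarian stroma miRNAs summed to 31048 to 109509 CPM in CON, 37452 to 66873 in FAC, 24033 to 44197 in DFO and 14056 to 21061 in VE, so that VE was below all other libraries on this scale. Most of this sum was miR-143-3p, with group means of 64712 CPM in CON, 47384 in FAC, 30465 in DFO and 16803 in VE. VE did not have the lowest mean for miR-145a-3p, miR-214-3p and miR-199a-5p. In the same order of groups these were at 64.2, 79.5, 63.6 and 107 CPM, 43.55, 90.9, 97.1 and 55.7 CPM, and 109, 51.4, 22.2 and 24.2 CPM. The part of these other sources in the results below was not tested.

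The cluster took a small and variable share of the exosomal miRNA, and on that scale the 4 groups overlapped. The 43 entries together made up 0.626%, 0.452% and 0.280% of the miRNA counts in CON replicates 1 to 3 and 0.205%, 0.299% and 0.459% in FAC. The shares were 0.192%, 0.234% and 0.633% in DFO and 0.531%, 0.490% and 0.469% in VE. VE was the most even group, at 0.497% ± 0.0316 (SD, n = 3), against 0.453% ± 0.173 in CON, 0.321% ± 0.129 in FAC and 0.353% ± 0.243 in DFO (SD, n = 3 each). The widest 95% Wilson interval of a library's share spanned 0.0391 percentage points, so the differences between libraries of a group exceed the counting error, which is all that such intervals cover, since amplified reads are not independent molecules.

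Relative to the library, the order was different. The summed RPM of the cluster was 313, 90.2 and 79.3 in CON, 623, 646 and 1014 in FAC, 240, 465 and 350 in DFO and 488, 595 and 683 in VE. All FAC libraries were above all CON libraries (761 ± 219 against 161 ± 132 RPM, SD, n = 3 each), and so were all VE libraries (589 ± 97.3 RPM). The miRNA share of the library was higher in all FAC, DFO and VE libraries than in CON, while the summed cluster RPM of DFO overlapped with that of CON. No test was made on the sums because the members were chosen with results of these data known.

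**Figure D1:**
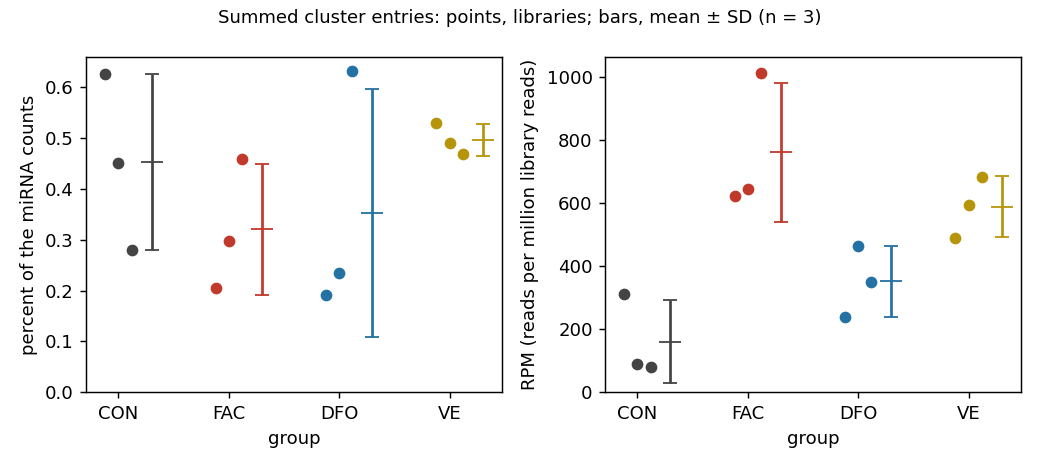
Summed cluster entries in each library, as percent of the miRNA counts (left, linear axis from 0) and in RPM, scaled to the reads of the library (right, linear axis from 0). Points are libraries in order of replicate number and bars are mean ± SD (n = 3). On the left the groups overlap, and on the right the 3 FAC libraries, at 623 to 1014 RPM, lie above the 3 CON libraries, at 79.3 to 313 RPM.

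For comparison, the Sfmbt2 cluster, another large mouse miRNA cluster, was represented by 13 entries (miR-297, miR-466, miR-467 and miR-669) and had a different pattern on the same scale. It took 0.0439% ± 0.0193 of the miRNA counts in CON, 0.0263% ± 0.00451 in FAC, 0.141% ± 0.00778 in DFO and 0.0181% ± 0.00279 in VE (SD, n = 3 each). Its 3 DFO libraries, at 0.134% to 0.149%, were above the other 9, whereas those of the Dlk1-Dio3 cluster spanned 0.192% to 0.633%. The difference between the clusters was not tested.

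A few members held most of the cluster's reads. The 10 most abundant had mean levels above 100 CPM over the 12 libraries and accounted for 90.2% of the cluster, and miR-409-3p alone accounted for 30.02%. A further 10 lay between 10 and 100 CPM and 23 were below 10 CPM. The median mean level was 7.21 CPM over the members and 5.08 CPM over all entries. By position, the miR-379 to miR-410 group (32 entries) held 77.1% of the cluster's CPM, the 7 entries of miR-337, miR-431, miR-433, miR-127 and miR-434 17.9%, miR-493 and miR-673, which also lie within the span of Rtl1, 0.743%, miR-770-3p of Meg3 4.09%, and miR-370-3p of Rian 0.110%. The miR-379 to miR-410 group was at 3713 ± 786 CPM in CON, 2038 ± 1298 in FAC, 2816 ± 2070 in DFO and 4290 ± 107 in VE (SD, n = 3 each), and the 7 entries of miR-337 to miR-434 at 763 ± 629, 836 ± 445, 540 ± 384 and 848 ± 40.4 CPM in the same order. For these 7 entries the ranges of all groups overlapped. In the miR-379 to miR-410 group the FAC libraries, at 1162 to 3529 CPM, lay below the VE libraries, at 4167 to 4359 CPM, on this scale, and the other ranges overlapped. How often other sums separate FAC from VE was not determined.

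**Figure D2:**
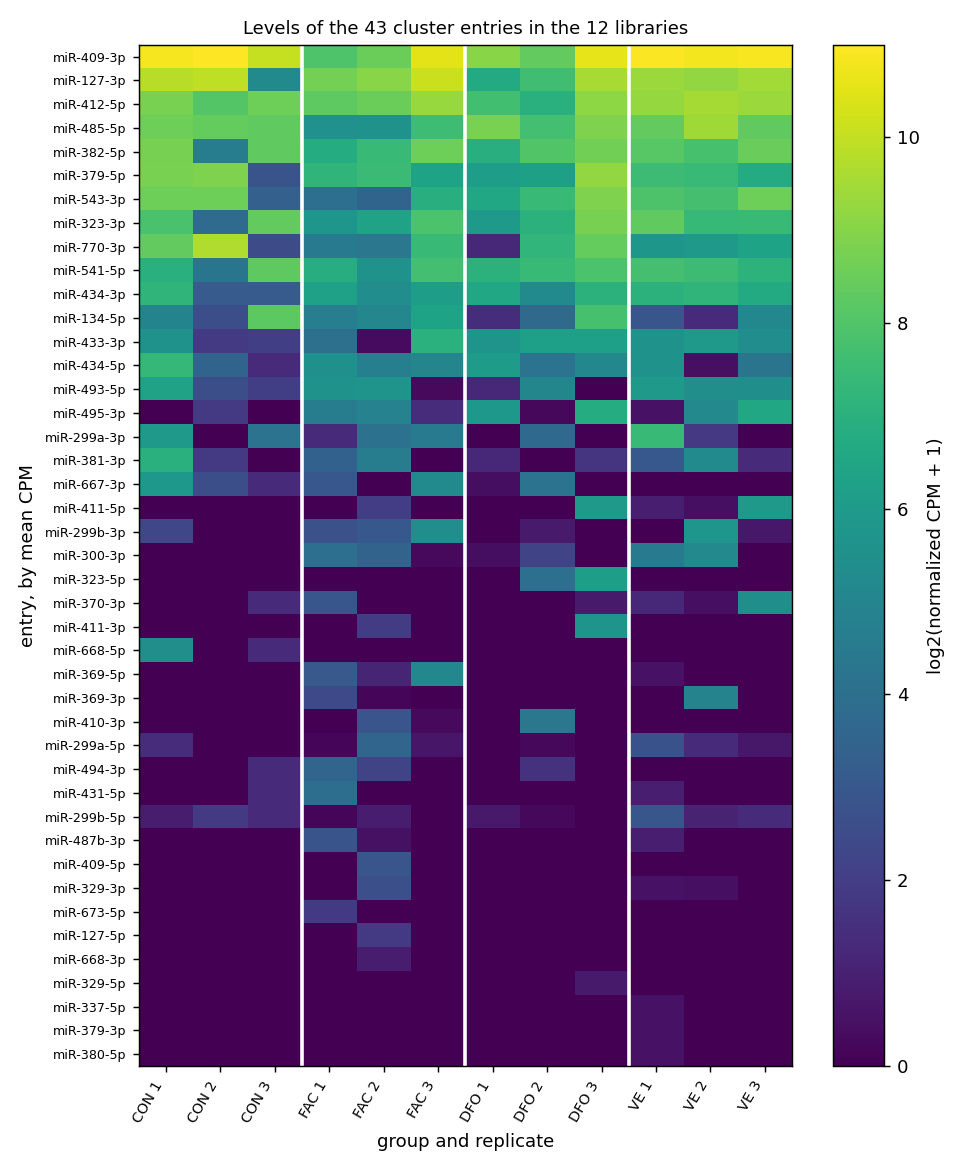
Level of each of the 43 entries (rows, ordered by mean CPM) in each of the 12 libraries (columns, by group and replicate number), as log2 of normalized CPM plus 1. The upper rows are filled in nearly every library, whereas most of the lower rows have a level above 0 in only some libraries of a group.

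Neighbours in the genome differed widely in level. Mir409 and Mir412 lie 52 bases apart and Mir412 and Mir369 49 bases apart, all on the plus strand of Mirg. Their summed levels were 1252 CPM for Mir409, 438 CPM for Mir412 and 6.46 CPM for Mir369, and Mir410, 218 bases further, was at 2.19 CPM. Capture and amplification can differ between sequences, so levels of different miRNAs are not amounts of RNA.

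Arm use was one-sided in the abundant hairpins. Over the 12 libraries, miR-409 had 36347 counts on its 3p arm and 49 on its 5p arm, miR-127 had 22126 and 20, and miR-379 had 1 count on its 3p arm and 6337 on its 5p arm. In miR-434 both arms were abundant, with 1429 counts on the 5p arm and 3174 on the 3p arm, a 5p share of 31.0% that ran from 0.249% to 52.7% over the 10 libraries with at least 20 counts on both arms together. In miR-369 the 5p arm had 243 counts and the 3p arm 119.

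Detection differed between libraries. At least 1 count was found for 21 ± 1.73 members in CON, 28.7 ± 5.13 in FAC, 22 ± 2.65 in DFO and 26 ± 4 in VE (SD, n = 3 each). Over all 637 entries, it was found for 266, 267 and 284 entries in CON and 402, 475 and 299 in FAC. The numbers were 329, 332 and 280 in DFO and 296, 295 and 318 in VE, so wider detection in FAC was not particular to the cluster. Thinned to the 452021 miRNA counts of the shallowest library, the means were 19.7, 24, 19 and 20 members in the same order, with a range of 18 to 28 in FAC and 19 to 21 in CON. Thinned numbers over all entries were not determined. Only 4 members, miR-409-3p, miR-127-3p, miR-412-5p and miR-485-5p, had at least 10 counts in every library, and 14 had at least 1 count in every library.

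Many members were on or off within a group. Of the 516 values of the cluster (43 entries in 12 libraries), 223 were 0 (43.2%) and 77 were 1 to 9 counts. The other values are set against a mode of each library, the highest peak in the density of its log2 counts between 10 and 500 counts (20.3 to 198 counts). Whether weakly detected miRNAs gather at this mode was not tested. Of these values 131 were over 2 times that mode, 73 were 0.5 to 2 times the mode and 12 were at least 10 counts but lower. In 10 members (23.3%) a single library held over 90% of the CPM, against 198 of all 637 entries (31.1%). In 8 members, 1 library was the only one with a count. The spread behind the tests was correspondingly wide, with a common biological coefficient of variation of 1.57.

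The most abundant member, miR-409-3p, ranked 41st of the 637 entries by mean level. It was at 1830, 2038 and 1047 CPM in CON, 246, 364 and 1475 CPM in FAC, 520, 327 and 1552 CPM in DFO and 1957, 1783 and 1873 CPM in VE. Every CON and VE library was at 1047 CPM or above, while FAC and DFO each held 2 low libraries and 1 library, replicate 3, at the level of CON.

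miR-127-3p, which is cut from the transcript antisense to Rtl1 and is fully complementary to the Rtl1 messenger RNA, was second in level. It was at 887, 977 and 36.2 CPM in CON, 417, 519 and 1121 in FAC, 103, 197 and 745 in DFO and 644, 595 and 700 in VE. CON replicate 3 rested on 23 counts and was the lowest of all libraries, and the groups overlapped.

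miR-412-5p, next in level, was at 436, 263 and 377 CPM in CON, 311, 364 and 627 in FAC, 200, 126 and 562 in DFO and 606, 735 and 650 in VE. It was the most even of the 3 leading members in CON.

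miR-485-5p was the one abundant member whose FAC libraries did not overlap with any other library. It was at 380, 334 and 314 CPM in CON, 46.8, 47.0 and 188 in FAC, 441, 206 and 472 in DFO and 323, 691 and 314 in VE. All 3 FAC values lay below all 9 others, a pattern with FAC lower that 0.366% of the 547 tested entries had. FAC replicate 3, at 188 CPM, was close to the lowest DFO library, at 206 CPM. In RPM the order was not kept. FAC was at 16.1, 14.6 and 37.8 RPM and CON at 19.1, 5.61 and 8.09 RPM, so FAC was below CON relative to miRNA counts and had the higher mean relative to the library (22.8 ± 13 against 10.9 ± 7.21 RPM, SD, n = 3 each).

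miR-543-3p was low in FAC except in 1 library. It was at 382, 376 and 9.43 CPM in CON, 15.1, 10.7 and 119 in FAC, 96.1, 171 and 462 in DFO and 238, 215 and 375 in VE. CON replicate 3, with 6 counts, was the lowest of all, so FAC and CON overlapped, while all 3 FAC libraries were below all VE libraries. The share of all entries with FAC below VE in this way was not determined.

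miR-770-3p, the member within Meg3, was at 324, 821 and 4.72 CPM in CON, 21.9, 19.5 and 169 in FAC, 1.38, 148 and 339 in DFO and 55.1, 58.3 and 82.0 in VE. CON replicate 2 held 40.2% of its CPM over the 12 libraries, and VE was the only group without a library far from the rest.

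The other 4 abundant members had a low library in CON. miR-382-5p was at 428, 23.7 and 314 CPM in CON, 111, 170 and 376 in FAC, 121, 253 and 397 in DFO and 277, 220 and 351 in VE. miR-379-5p, from the first hairpin of the miR-379 to miR-410 group, was at 439, 463 and 6.29 CPM in CON, 147, 178 and 81.6 in FAC, 68.2, 74.6 and 589 in DFO and 186, 173 and 108 in VE. miR-323-3p was at 227, 13.2 and 325 CPM in CON, 54.0, 78.5 and 236 in FAC, 59.9, 131 and 422 in DFO and 314, 163 and 169 in VE. The low value was in CON replicate 2 for miR-382-5p and miR-323-3p and in CON replicate 3 for miR-379-5p. miR-541-5p, next to Mir409 in Mirg, was at 127, 18.4 and 305 CPM in CON, 113, 48.5 and 210 in FAC, 133, 169 and 237 in DFO and 215, 183 and 136 in VE, with its lowest value in CON replicate 2.

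**Figure D3:**
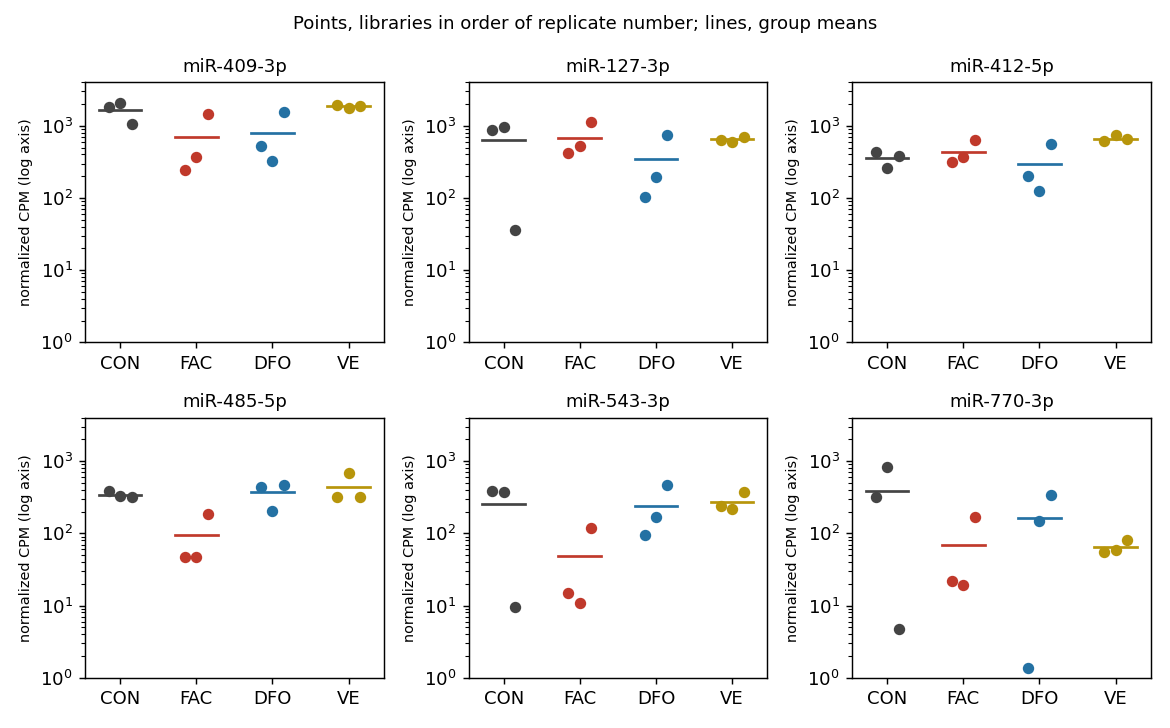
Normalized CPM (log axis) of 6 members in the 4 groups. Points are libraries in order of replicate number and lines are group means. For miR-485-5p the 3 FAC libraries, at 46.8 to 188 CPM, lie below all 9 others, which is so on this scale and not in RPM, and in the other panels the FAC libraries overlap with those of at least 1 other group.

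Within the cluster, the shares of the 10 most abundant members were compared, and those of miR-127-3p and miR-485-5p did not overlap between FAC and the other libraries. Of the summed cluster counts, miR-127-3p took 23.0%, 25.0% and 22.2% in FAC, 14.3%, 18.2% and 1.17% in CON, 5.11%, 9.63% and 11.4% in DFO and 12.1%, 11.3% and 13.5% in VE, so that FAC was above all 9 others. miR-485-5p took 2.58%, 2.26% and 3.73% in FAC and 6.04% to 21.9% in the other libraries. This share does not depend on the scaling of a library. miR-412-5p took 17.2%, 17.5% and 12.4% in FAC and 4.90% to 14.0% elsewhere. miR-543-3p took 0.834%, 0.513% and 2.36% in FAC, 6.14%, 7.01% and 0.306% in CON, 4.77%, 8.33% and 7.08% in DFO and 4.47%, 4.09% and 7.20% in VE. miR-409-3p, the leading member, took 20.1% ± 8.14 in FAC, 33.8% ± 4.24 in CON, 21.9% ± 5.20 in DFO and 35.5% ± 1.45 in VE (SD, n = 3 each). The shares of a library depend on each other, so a lower share of miR-409-3p raises those of the others. How often a share separates FAC from the other libraries was not determined over all entries. These shares are a description and were not tested.

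**Figure D4:**
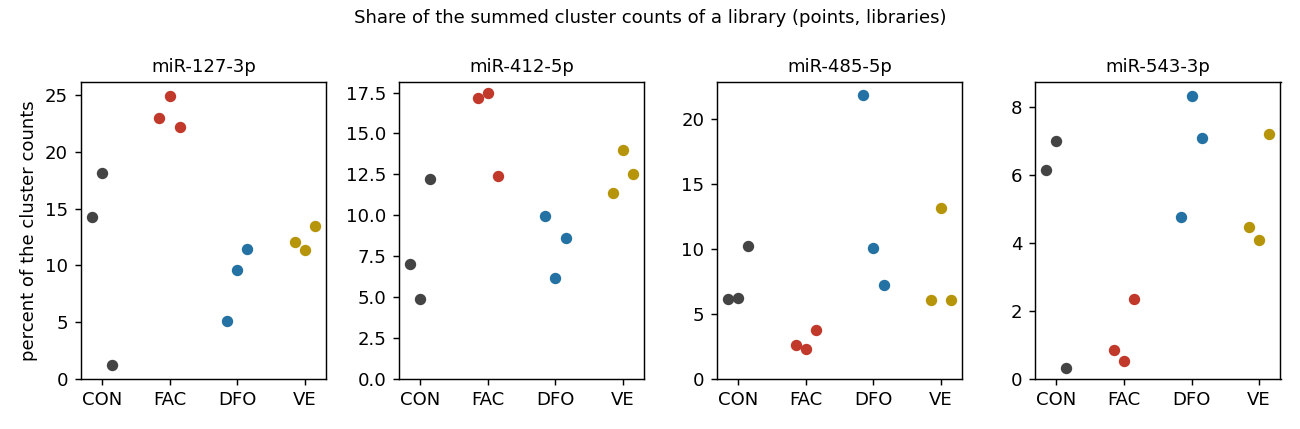
Percent of the summed cluster counts of a library taken by miR-127-3p, miR-412-5p, miR-485-5p and miR-543-3p (linear axes from 0, different in each panel). Points are libraries in order of replicate number. FAC is above all other libraries for miR-127-3p (22.2% to 25.0%) and below them for miR-485-5p (2.26% to 3.73%). How often a share separates FAC in this way over all entries was not determined.

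The less abundant members were mostly absent from some libraries of every group, and counts are given for them. miR-369-5p, from a hairpin of Mirg, had 63, 9 and 170 counts in FAC, none in CON or DFO and 1, 0 and 0 in VE. Its FAC values were thus above all 9 others as computed. FAC replicate 2, at 1.20 CPM, was below the 2.46 to 7.90 CPM that 3 counts make in CON libraries. A count of 0 in CON therefore does not place CON below that library. Its mean CPM in FAC was at least 2.86-fold higher than in CON and at least 11.3-fold higher than in DFO (floor of 3 counts per library, averaged over the group). By summed counts per summed normalized library size it was 94.0-fold higher than in VE (95% counting interval 16.7 to 3729). A FAC group without overlap in either direction was found for 2.38% of the tested entries.

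miR-495-3p was near 0 in CON, with 0, 1 and 0 counts. It had 210, 214 and 8 counts in FAC, 165, 1 and 148 in DFO and 1, 96 and 294 in VE. By summed counts per summed normalized library size the ratio to CON was 46.1 in FAC (95% counting interval 8.23 to 1826), 71.6 in DFO (12.8 to 2836) and 107 in VE (19.2 to 4255). The mean levels were 0.878 CPM in CON, 18.3 in FAC, 56.0 in DFO and 42.6 in VE, so the order of DFO and VE depends on the measure. Each treated group held a library with 1 to 8 counts, so each overlapped with CON on the CPM scale.

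miR-667-3p had no count in VE. It had 70, 2 and 1 counts in CON, 59, 0 and 181 in FAC and 1, 96 and 0 in DFO. The mean CPM was at least 18.9-fold higher in CON and at least 12.9-fold higher in FAC than in VE. miR-668-5p had 52, 0 and 1 counts in CON and none in the other 9 libraries, which put CON at least 32.4-fold above FAC, with almost all counts from CON replicate 1. miR-323-5p had 0, 84 and 90 counts in DFO and none elsewhere. Its mean CPM in DFO was at least 60.7-fold above FAC, and DFO replicate 3 held 81.8% of its CPM. miR-411-5p had 2, 1 and 192 counts in VE, 0, 0 and 78 in DFO, 0, 22 and 0 in FAC and none in CON, at least 4.09-fold higher in VE than in CON, a difference that came from VE replicate 3. These folds are group mean CPM over the mean floor, and folds of summed counts were not computed for them. Under these floors a count of 0 in CON allows a higher level than a count of 0 in FAC, since 3 counts were 2.46 to 7.90 CPM in CON libraries and 0.351 to 0.609 CPM in FAC libraries.

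The groups were compared with edgeR's quasi-likelihood test on the counts, TMM-normalized, in a single model of the 12 libraries. Tested were the 547 entries whose counts summed to 10 or more, 38 of them members. Of the named members, miR-668-5p met this filter only through its CON counts, miR-323-5p through its DFO counts and miR-369-5p through its FAC counts. Their tests, on any scale, are therefore no support for a difference between groups. The remaining 5 members (miR-329-5p, miR-337-5p, miR-379-3p and miR-380-5p with 1 count each and miR-668-3p with 6) were not tested. A miRNA was past the threshold with a fold change of at least 1.5 and an unadjusted p under 0.05, the rule that the study names, and the Benjamini-Hochberg adjusted p was taken over all 547. In edgeR with TMM no member had an adjusted p under 0.05 in any of the 5 comparisons, and the numbers of members at an unadjusted p under 0.05 were 3 in FAC against CON, 3 in FAC against DFO, 4 in FAC against VE, 1 in DFO against CON and 4 in VE against CON. Of all tested entries, 0.183%, 0.914%, 0.366%, 0.548% and 2.01% had an adjusted p under 0.05 in the same order. FAC entered 3 comparisons and CON 3, so the comparisons share libraries and are not independent.

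In FAC against CON, 3 of the 38 members were past the threshold, all lower in FAC. Over all tested entries 9.51% were past it, 2.38% higher and 7.13% lower. miR-543-3p was lower by a log2 fold change of -2.41 (SE 1.15, edgeR adjusted p = 0.470) and miR-770-3p by -2.45 (SE 1.22, edgeR adjusted p = 0.497), and relative to the library total they were at 0.33 and 0.65. The third was miR-668-5p, at 0 in FAC and tested only through its CON counts (edgeR adjusted p = 0.470). miR-485-5p, with a log2 fold change of -1.87 (SE 0.993, edgeR adjusted p = 0.582), was not past the threshold. In DESeq2 it was the 1 member with an adjusted p under 0.05, at a log2 fold change of -2.11 (DESeq2 adjusted p = 0.0242), where 21 of 407 entries tested were under it, while relative to the library total it was at 1.06 (SE 1.20, edgeR adjusted p = 0.468). miR-369-5p, at 0 in CON, was not past the threshold either (edgeR adjusted p = 0.607).

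Each of these calls was lost in some of the fits with 1 library fewer. miR-543-3p was no longer past the threshold without CON replicate 1, CON replicate 2, FAC replicate 1 or FAC replicate 2, with log2 fold changes of -2.0, -2.03, -2.11 and -1.99, and stayed past it at -4.31 without FAC replicate 3 and -3.0 without CON replicate 3. miR-770-3p was not past it without CON replicate 2 (-1.23), FAC replicate 1 (-2.16) or FAC replicate 2 (-2.07), and was past it at -4.22 without FAC replicate 3 and -3.06 without CON replicate 3. miR-668-5p was not past it without FAC replicate 1, 2 or 3 (edgeR adjusted p = 0.738, 0.691 and 0.521), and was not with the replicate block. Without CON replicate 1 it fell below the filter of 10 counts and was not tested.

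Relative to the library read totals, 6 other members were past the threshold in FAC against CON, all higher in FAC, where 29.1% of all tested entries were higher. miR-412-5p had a log2 fold change of 3.26 (SE 1.14, edgeR adjusted p = 0.0318) and miR-127-3p of 3.09 (SE 1.08, edgeR adjusted p = 0.0323). miR-495-3p (edgeR adjusted p = 0.0326), miR-369-5p (0.138), miR-382-5p (0.164) and miR-300-3p (0.103) were the others, miR-300-3p being named after its values were seen. The median log2 fold change was 1.38 with TMM and 4.35 with library totals over all tested entries, and 0.24 and 3.18 over the members, whose median was below 0 in DESeq2 (-0.21) and among those with at least 10 counts in at least 3 libraries (-0.43). Among these are entries at 0 in a group (13 of 38 members and 200 of 547 entries), and with such entries set to their bound both TMM medians were 0.

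**Figure D5:**
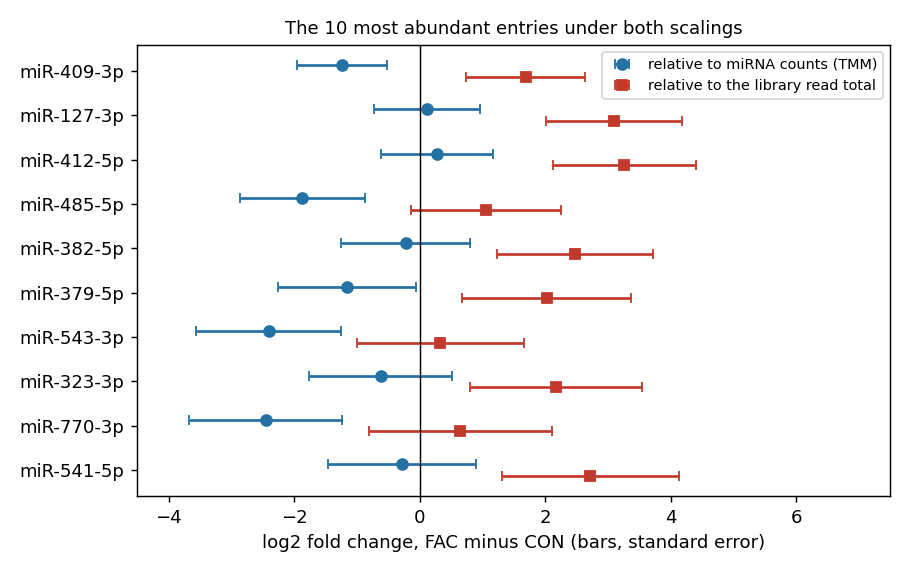
Log2 fold change of FAC against CON for the 10 most abundant members, with bars of 1 standard error, relative to miRNA counts with TMM (circles) and relative to the library read total (squares). All 10 squares lie above 0, from 0.33 for miR-543-3p to 3.26 for miR-412-5p, whereas 8 of the 10 circles lie below 0, the exceptions being miR-127-3p (0.12) and miR-412-5p (0.27).

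In FAC against DFO, 3 of the 38 members were past the threshold, all lower in FAC. Over all tested entries 12.2% were past it, 4.75% higher and 7.5% lower. The members were miR-485-5p (log2 fold change -1.99, SE 0.996, edgeR adjusted p = 0.395), miR-543-3p (-2.33, SE 1.15, edgeR adjusted p = 0.382) and miR-323-5p, at 0 in FAC (edgeR adjusted p = 0.253). miR-323-5p was tested only through its DFO counts. DESeq2 gave miR-485-5p an adjusted p of 0.00753, the 1 member among 40 entries under 0.05. Relative to the library total, miR-485-5p (-0.86) and miR-543-3p (-1.21) kept the sign and were not past the threshold. miR-127-3p and miR-369-5p were past it on that scale, both higher in FAC (edgeR adjusted p = 0.278 and 0.283), where 12.2% of all tested entries were higher.

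miR-485-5p was not past the threshold without FAC replicate 1, FAC replicate 2, DFO replicate 1 or DFO replicate 3, with log2 fold changes of -1.81, -1.78, -1.77 and -1.78. miR-543-3p was not past it without FAC replicate 1 (-1.93), FAC replicate 2 (-1.92) or DFO replicate 3 (-1.47). Without FAC replicate 3, the FAC library in which both were highest, miR-485-5p was at -3.02 and miR-543-3p at -4.13, both past the threshold. miR-323-5p was not past it without these same libraries (edgeR adjusted p = 0.616, 0.495 and 0.488) or with the replicate block.

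In FAC against VE, 4 of the 38 members were past the threshold. Over all tested entries 9.32% were past it, 4.39% higher and 4.94% lower. Lower in FAC were miR-485-5p (log2 fold change -2.24, SE 1.00, edgeR adjusted p = 0.446), miR-543-3p (-2.52, SE 1.16, edgeR adjusted p = 0.448) and miR-409-3p (-1.43, SE 0.722, edgeR adjusted p = 0.520). miR-667-3p, at 0 in VE, was higher in FAC (edgeR adjusted p = 0.446). DESeq2 gave miR-485-5p an adjusted p of 0.0114, the 1 member among 17 entries under 0.05. Relative to the library total, the 3 lower members were at -1.12, -1.56 and -0.34 and not past the threshold, and miR-667-3p was (edgeR adjusted p = 0.269), where 13.5% of all tested entries were higher in FAC.

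miR-409-3p was not past the threshold without FAC replicate 1 (log2 fold change -0.96), FAC replicate 2 (-1.15) or VE replicate 1, 2 or 3 (-1.40, -1.46 and -1.43). miR-485-5p was not past it without FAC replicate 1 (-1.83), FAC replicate 2 (-1.90) or VE replicate 2 (-1.76), and miR-543-3p was not without FAC replicate 1 (-2.05), FAC replicate 2 (-2.08) or VE replicate 3 (-2.23). Without FAC replicate 3 the 3 members were past it, at -2.43, -3.05 and -4.25 in the same order. miR-667-3p was not past it without FAC replicate 3 (edgeR adjusted p = 0.472) or VE replicate 1, 2 or 3 (edgeR adjusted p = 0.677, 0.644 and 0.628).

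In DFO against CON, miR-495-3p was the 1 member past the threshold, higher in DFO (edgeR adjusted p = 0.540). Over all tested entries 7.68% were past it, 2.74% higher and 4.94% lower. It was also past it relative to the library total (edgeR adjusted p = 0.112), where 16.5% of all tested entries were higher, and was not past it with TMM without CON replicate 1, CON replicate 3 or DFO replicate 3 (edgeR adjusted p = 0.756, 0.706 and 0.594). miR-485-5p was at a log2 fold change of 0.12 (SE 0.961) and miR-409-3p at -1.03 (SE 0.716), and relative to the library total they were at 1.92 and 0.52. None of these values was past the threshold.

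In VE against CON, 4 of the 38 members were past the threshold. Over all tested entries 10.4% were past it, 3.29% higher and 7.13% lower. miR-495-3p and miR-411-5p were higher in VE (edgeR adjusted p = 0.460 for each). Lower in VE were miR-667-3p, at 0 there (edgeR adjusted p = 0.434), and miR-770-3p (log2 fold change -2.55, SE 1.23, edgeR adjusted p = 0.460). Relative to the library total, 5 members were higher and 1, miR-667-3p, was lower, where 19.2% of all tested entries were higher, and miR-770-3p was at -0.43 and not past the threshold.

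miR-770-3p was not past the threshold without CON replicate 2 (log2 fold change -1.33) or VE replicate 1, 2 or 3 (-2.45, -2.48 and -2.75), and was past it without CON replicate 3 (-3.16). miR-495-3p was not past it without CON replicate 1, CON replicate 3 or VE replicate 3 (edgeR adjusted p = 0.607, 0.640 and 0.602), and miR-667-3p was not without CON replicate 1 (edgeR adjusted p = 0.636) or VE replicate 1, 2 or 3 (edgeR adjusted p = 0.624, 0.602 and 0.602). miR-411-5p was not past it without CON replicate 1, 2 or 3 (edgeR adjusted p = 0.636, 0.663 and 0.691), without VE replicate 3 (edgeR adjusted p = 0.814) or with the replicate block.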

How the data were processed

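For each of the 12 libraries the authors deposited raw counts of reads per miRNA entry and a file of the same entries as RPM, named TPM there, in which each count is scaled to a library total. The submitters' processing notes name the genome build mm9, and the aligner and miRNA database are not given in the sources used here. Counts were normalized by TMM and tested with edgeR 4.0.16 in R 4.3.3, in 1 quasi-likelihood fit of the 4 groups over entries with at least 10 counts in all libraries together (547 of 637), and the script was tested on simulated counts. DESeq2 1.42.0 and limma 3.58.1 (on log2 of RPM plus 1 or 0.1) were alternatives, with other scalings, filters, a replicate block and the omission of each library. Sums, shares and figures were made in Python 3.11.15. Depth and counting intervals are given with the values, and no libraries were alike within sampling noise (smallest chi-square per degree of freedom over 66 pairs, 101.9). Named are the 10 most abundant members, members past the threshold, members whose FAC libraries do not overlap with the other 9, and miR-485-5p, miR-369-5p and miR-543-3p. The mode of the counts of a library was added after the counts had been seen. The members and lists were chosen with earlier results of these data known. Sequences and positions are RefSeq's on GRCm38.p6, matched by name, with no conversion of coordinates.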

Additional observations from a re-analysis of the deposited data

How the results depend on the processing

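The 43 members are mostly low, and the spread between 3 libraries limits every comparison. The settings below did not all test the same members. The main fit, the other scalings and the limma fits tested 38 members among 547 entries, and DESeq2 gave p-values for 30 among 407. The filter of at least 10 counts in at least 3 libraries left 23 members among 317 entries. The number of members past the threshold in FAC against CON was 3, and 5 with median-of-ratios factors (11.2% of all tested entries were past it), 6 relative to library read totals (29.1%), 5 with DESeq2 (17.7%) and 13 with limma on log2(RPM + 1) or log2(RPM + 0.1) (35.6% and 37.1%). All 6 and all 13 were higher in FAC, against 1 of the 5 in DESeq2 and none with TMM. In FAC against DFO it was 3, and 6 with DESeq2 (20.9% of all), 1 with at least 10 counts in at least 3 libraries (18.0%) and 5 in both limma fits (22.7% and 23.2%). In FAC against VE it was 4, and 1 relative to library read totals (14.8%). In DFO against CON it was 1, and 2 with DESeq2 (12.5%) and 7 and 6 in the limma fits (16.8% and 13.3%), and in VE against CON it was 4, and 2 with the stricter filter (12.3%) and 9 and 11 in the limma fits (18.8% and 16.8%). With an adjusted p under 0.05, the limma fits gave 7 and 6 members (128 and 114 of 547 entries) in FAC against CON, 1 and 1 (29 and 11) in FAC against DFO and 3 and 0 (33 and 7) in VE against CON. These include miR-369-5p, tested only through its FAC counts, in both fits of FAC against CON. With log2(RPM + 0.1) it was also the 1 member in FAC against DFO, so that count is no support for a difference. Without the leading member of the cluster, miR-409-3p, the VE share was 0.320% in place of 0.497%. Omission of 1 library moved the counts to 0 to 5 in FAC against CON, 0 to 4 in FAC against DFO, 1 to 3 in FAC against VE, 0 to 3 in DFO against CON and 1 to 3 in VE against CON, and the shares to 0.366% to 0.539% in CON, 0.252% to 0.379% in FAC, 0.213% to 0.434% in DFO and 0.479% to 0.510% in VE. The direction turned for miR-543-3p in FAC against CON (0.33 relative to library totals, 0.62 and 1.12 in the limma fits) and for miR-770-3p in FAC against CON (0.65, 0.96 and 1.66) and VE against CON (0.30 and 0.96 in the limma fits), all of which are relative to the library and not to miRNA counts. The cause of the other moves was not tested.

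With the replicate number as a block, 3, 2, 4, 1 and 3 members were past the threshold in the 5 comparisons, in the order above, with 7.13%, 9.87%, 5.85%, 4.20% and 6.58% of all entries. Same-numbered libraries did not deviate together (mean r 0.00421 over 18 pairs, -0.0860 to 0.0690, against -0.00202 over 36 pairs of different numbers), so they share a number and no pairing was assumed. Of 132 alternative values of the named calls, 80 kept direction and call, 44 lost the call and 8 turned, and of 89 values with 1 library omitted 36 kept it and 53 lost it.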

Other observations

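Of the miRNAs of the same region whose numbers were outside the rule, 3 entries had a count. miR-1188-5p had 120 counts in CON, all of them in a single library, at 189 CPM. It had none in the rest of CON or in the other 9 libraries. miR-1247-3p had 15 counts in FAC and 1 in DFO, and miR-1247-5p had 3 in VE. The arms of miR-369 were not detected together in most libraries, with a 5p share of 0% to 100% over the 3 libraries with at least 20 counts on both arms together.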
